A study of Erysimum cheiri and Matthiola incana and Raphanus sativus with 44 samples.

Results

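The genes described here are the nuclear genes for the light-harvesting antenna and for the nuclear-encoded subunits of photosystem I and photosystem II. They were taken as 43 Arabidopsis locus identifiers and matched to the locus column of each species' expression table, where 43 of 43 were found among up to 34133 loci. The antenna holds 21 of them, of which 15 are LHCB genes and 6 are LHCA genes. Photosystem I holds 12 (PSAD to PSAO) and photosystem II holds 10 (PSBO to PSBY). The files give only locus identifiers, and the gene names are the standard Arabidopsis ones.

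Both photosystems are pigment-protein complexes of the thylakoid membrane in the plastid. Their reaction centres are encoded largely in the plastid genome, whereas the antenna proteins and many smaller subunits are encoded in the nucleus and imported. LHCB proteins bind chlorophyll around photosystem II and LHCA proteins around photosystem I, and light energy passes from them to the reaction centres. In petals of this family, young green plastids usually lose chlorophyll and become colourless leucoplasts or carotenoid-storing chromoplasts as the flower opens, and antenna and photosystem transcripts are commonly much lower than in leaves.

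Petals were taken from half-open flowers of 10 Brassicaceae species grown in a greenhouse, in 22 colour forms with 2 poly(A) RNA-seq libraries each. The study compared forms of one species that differ in flower colour. The values are FPKM, that is, fragments scaled by transcript length and library size, assigned to Arabidopsis loci. Nothing in the labels says that the libraries of a form came from separate plants, although the series calls them biological replicates, so the p-values below measure only the spread between these libraries.

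Forms are called here by the codes in the sample titles, because the colour labels do not always follow the codes. In Raphanus sativus (radish), DP and W were labelled violet and LP white-violet. In Orychophragmus violaceus, P was labelled violet and W white-violet, and in Malcolmia maritima, LP was labelled violet and P white-violet. In Matthiola incana (stock), W was labelled white, DP lavender, LP modena and RB pink. In Erysimum cheiri (wallflower), B was labelled orange, O pink, and P and Y yellow; the organism field of form Y names Eruca. In Iberis amara, P was labelled pink and PI violet, and in Lobularia maritima (sweet alyssum), P was labelled violet and W white. Aubrieta PI (pink), Brassica oleracea Y (yellow) and Eruca sativa Y (brownness, with Erysimum in its organism field) had 1 form each and entered no comparison. The labels name no cultivar, and no form is stated to be isogenic with another.

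The depth of the libraries limits every value. In 7 species the low FPKM values fell on whole multiples of what 1 read is worth, and the reads recovered in this way over loci with such steps ranged from 20066 in Lobularia P library 1 to 1048949 in Malcolmia LP library 1. In the other 3 species (Aubrieta, Brassica and Eruca) no such steps were found and the depth is unknown. The 2 Aubrieta columns were identical and were counted as 1 library, which leaves 43 libraries. All libraries had petal identity genes (AP3, PI, SEP1, SEP2, SEP3 and AP1) with a summed level from 765 FPKM in Aubrieta to 15467 FPKM in Erysimum P library 2, with at most 1 of the 6 listed at 0 in any library. In bulk tissue, fewer green cells and less RNA per cell cannot be told apart.

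The 43 genes together took from 0.105% of the nuclear FPKM in Matthiola RB library 1 to 4.11% in Malcolmia P library 1. PSBR (locus AT1G79040), a small subunit needed for a stable oxygen-evolving complex, was among the 3 highest members in 8 of the 10 species. It reached a mean of 12400.2 FPKM in Malcolmia, which was 43.9% of the summed signal there, and 6051 FPKM in Aubrieta, which was 63.1%. LHCB5 (AT4G10340, a minor monomeric antenna protein of photosystem II), PSBO1 (AT5G66570, the manganese-stabilising protein of the oxygen-evolving complex) and LHCB1.5 (AT2G34420, a subunit of the major trimeric antenna) were each among the 3 highest in 4 species. PSAH2 (AT1G52230), at the side of photosystem I where the mobile antenna docks, was among the 3 highest in 3 species. PSBR, PSBO1 and LHCB5 were above 0 in every library.

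At the other end, LHCA6 was listed at 0 in 40 of 43 libraries and LHCA5 in 30. Both are minor antenna proteins that in Arabidopsis link photosystem I to the NDH complex. PSBY and PSBX, small membrane subunits of photosystem II, were listed at 0 in 28 and 22 libraries, and PSAD2 in 27. In the shallow libraries a value of 0 is a few reads away from a clearly higher level, since 1 read at a typical locus was worth from 0.387 to 10.8 FPKM.

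**Figure D1:**
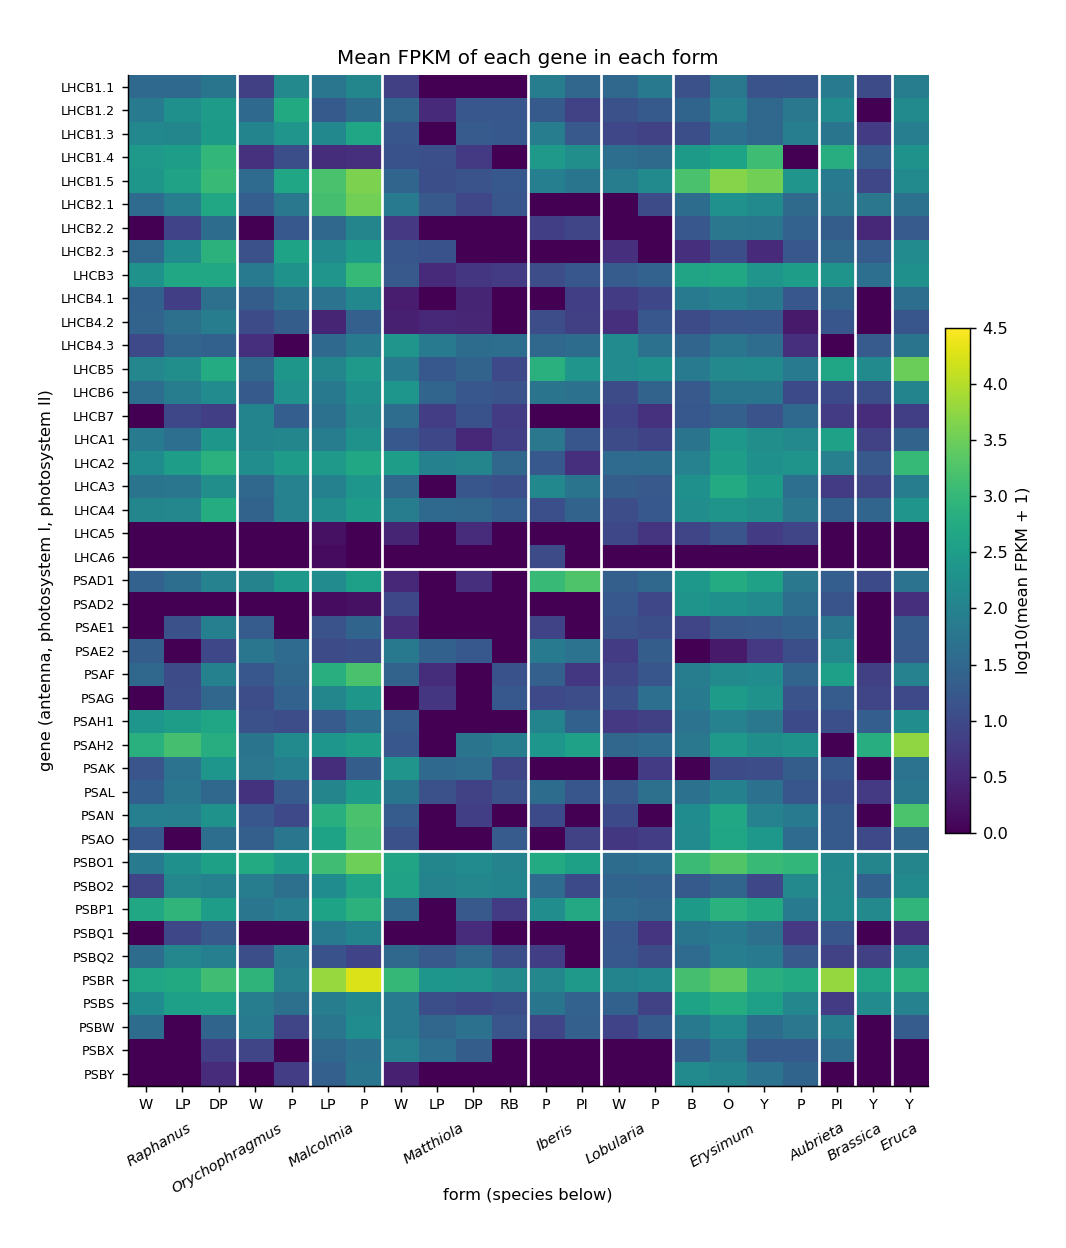
Mean FPKM of each of the 43 genes (rows, ordered antenna, photosystem I, photosystem II) in each form (columns, grouped by species), as log10(mean FPKM + 1). Malcolmia and Erysimum are bright across most rows and PSBR is bright in most columns, whereas LHCA5, LHCA6 and PSBY are dark in most forms.

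Several members come as near-identical copies, among which the authors' counting could split reads (LHCB1.1 to LHCB1.5, LHCB2.1 to LHCB2.3, LHCB4.1 and LHCB4.2, and the PSAD, PSAE, PSAH, PSBO and PSBQ pairs), and values of single copies are uncertain for that reason. Taken as deposited, PSAD1 was the higher copy in 35 libraries and PSAD2 in 2, and PSBO1 exceeded PSBO2 in 35 of 43. PSAH2 exceeded PSAH1 in 39 libraries, with the reverse in 2. The PSAE copies, which help ferredoxin dock on photosystem I, had no common order, with PSAE1 higher in 16 and PSAE2 in 17. The order of the PSBQ pair, an extrinsic protein of the oxygen-evolving complex, was opposite in 2 species: PSBQ1 was higher in 4 of 4 Malcolmia libraries and PSBQ2 in 6 of 6 Raphanus libraries. Likewise LHCB4.1 was higher in 8 of 8 Erysimum libraries and LHCB4.2 in 6 of 6 Raphanus libraries. In Raphanus W, however, LHCB4.1 and LHCB4.2 were close, at 31.8 and 35.1 FPKM in library 1 and 15.8 and 17.5 FPKM in library 2. Each gap was smaller than 1 read at a typical locus (10.8 and 10.7 FPKM). These orders are descriptions, and no test was made between species, whose tables were normalised separately.

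**Figure D2:**
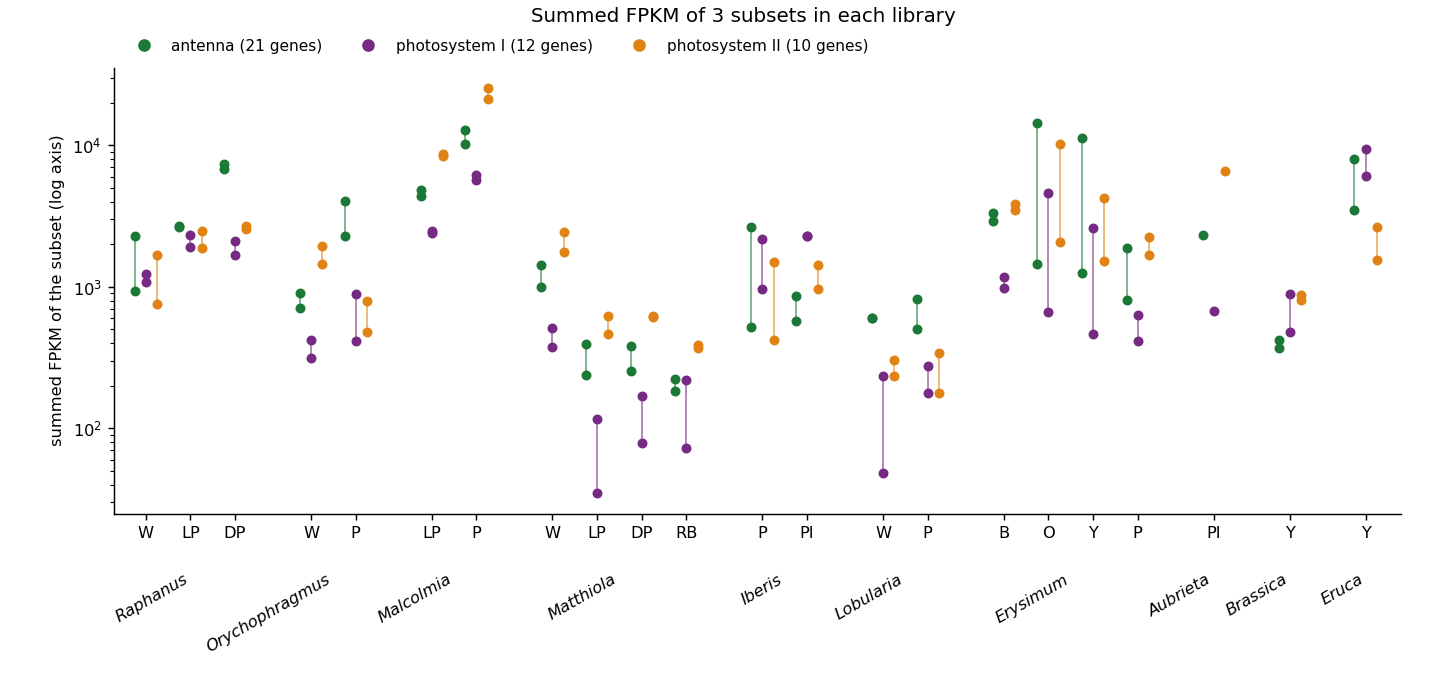
Summed FPKM of the antenna, photosystem I and photosystem II genes (log axis), 1 point per library and subset, grouped by form and species. The antenna sum of Raphanus DP (6849 and 7395 FPKM) lies above that of LP and W, all 3 sums of Matthiola W lie above those of the coloured forms, and libraries 1 and 2 of Erysimum O and Y lie far apart.

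For each comparison below, limma was fitted to log2(FPKM + 1) over every locus whose mean reached 1 FPKM in any form of the species, p-values were adjusted over all tested loci by the Benjamini-Hochberg method, and a gene was called at an adjusted p under 0.05. Fold changes are differences on the log2(FPKM + 1) scale. They understate the change of genes with low values above 0. Where a form is listed at 0 they can overstate it, since 1 read at a typical locus was worth up to 10.8 FPKM. With 2 libraries a form, an exact permutation test of a single value cannot go below p = 0.333, so the sums are given as values with their overlap.

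In Raphanus, the summed signal was highest in DP. The 43 genes summed to 5198 and 2774 FPKM in the W libraries, 7431 and 6486 FPKM in LP, and 11084 and 12182 FPKM in DP, so that no 2 forms overlapped. The mean of DP was 2.92-fold that of W (log2 ratio 1.55, SD 0.65) and 1.67-fold that of LP (0.74, SD 0.17), and the mean of LP was 1.75-fold that of W (0.80, SD 0.66). The 3 comparisons share forms and are not independent.

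Most of the excess in DP lay in the antenna. The antenna summed to 2278 and 931 FPKM in W, 2631 and 2686 FPKM in LP, and 6849 and 7395 FPKM in DP. It made up 61.8% and 60.7% of the member sum in DP, against 35.4% and 41.4% in LP and 43.8% and 33.6% in W. The LHCB1 loci together gave 1049 and 405 FPKM in W, 1118 and 995 FPKM in LP and 2617 and 2786 FPKM in DP. The LHCB2 loci, which encode the other main trimer subunit, gave 137 and 0 FPKM in W, 292 and 191 FPKM in LP and 1281 and 1362 FPKM in DP. Both families were thus highest in the 2 DP libraries, and the W and LP libraries overlapped for LHCB1 but not for LHCB2.

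In the comparison of DP with W, 2 of the 40 members tested were called and both rose, beside 10.8% of all tested loci called in either direction and 7.07% called higher in DP. LHCA2 (AT3G61470), a core protein of the photosystem I antenna belt, stood at 161 and 142 FPKM in W (9 and 8 reads), 267 and 368 FPKM in LP, and 731 and 761 FPKM in DP (95 and 140 reads). It rose by 2.29 (SE 0.24, limma adjusted p = 0.0175). LHCB1.5 stood at 326 and 153 FPKM in W, 459 and 326 FPKM in LP and 1153 and 1095 FPKM in DP, and rose by 2.33 (SE 0.42, adjusted p = 0.0396). For both genes the DP libraries lay above all others, but the call of LHCB1.5 was lost without W library 2, DP library 1 or DP library 2, and under quantile scaling. With the replicate number as a block, the calls of both LHCA2 and LHCB1.5 were lost.

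Members that were not called mostly pointed the same way. In 28 of 40 the DP libraries lay above both W libraries, beside 25.6% of all tested loci, and in 0 did they lie below, beside 13.2%. The median difference over the members was 1.85, or 1.61 with the 7 members listed at 0 in a whole form set at a floor of 3 reads per library, beside 0.86 over all tested loci. The antenna median was 2.1 (1.87 with the floor), with 19 of 19 tested antenna genes above 0. LHCA4, another subunit of the photosystem I antenna belt, gave 183 and 45.4 FPKM in W against 576 and 633 FPKM in DP (log2 difference 2.71, adjusted p = 0.0848). LHCB5 gave 209 and 32 FPKM in W against 575 and 577 FPKM in DP (2.79, adjusted p = 0.159). The wide gap between the 2 W libraries stands beside both of these adjusted p-values. Quantile scaling moved the median of all loci from 0.86 to 0.29.

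The photosystem II sum of Raphanus followed the order of the total, with 1691 and 759.9 FPKM in W, 2487 and 1889.7 FPKM in LP, and 2552 and 2688 FPKM in DP, but DP and LP were closer here than in the antenna. Photosystem I had another order. The photosystem I sum was 1230 and 1083 FPKM in W, 2313 and 1910.1 FPKM in LP, and 1683 and 2100 FPKM in DP, so that LP and DP overlapped. PSAH2 made up most of it in the W and LP libraries and a smaller share in DP. PSAH2 gave 836 and 593 FPKM in W, 1622 and 1408 FPKM in LP and 569 and 702 FPKM in DP. It was highest in the 2 LP libraries and fell by 1.26 in DP against LP (SE 0.23, adjusted p = 0.0483), a call that was lost when any 1 LP or DP library was left out and under each other scaling. PSBP1, an extrinsic protein of the oxygen-evolving complex, had the same order without a call in any comparison, with 653 and 316 FPKM in W, 1074 and 684 FPKM in LP, and 262 and 411 FPKM in DP. PSBR was highest in DP, with 654 and 218 FPKM in W, 560.1 and 502 FPKM in LP, and 1308 and 1317 FPKM in DP (DP against W 1.80, adjusted p = 0.127).

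The remaining Raphanus calls concern PSBW (AT2G30570), which helps hold photosystem II to its antenna. It was at 50.6 and 25.2 FPKM in W, listed at 0 in both LP libraries, and at 32.4 and 23.0 FPKM in DP. These levels rest on 1 to 3 reads a library, so no fold is given. It was called lower in LP than in W (adjusted p = 0.0482) and higher in DP than in LP (adjusted p = 0.0299). The call against W was lost without the filter on low values, under each other scaling, without LP library 2 and in limma voom, and the call of DP against LP in limma voom. Both PSBW calls were also lost with the replicate number as a block. Thus, in the main fit, 1 of 40 members was called in LP against W, beside 2.56% of all tested loci (1.04% lower). In DP against LP 2 of 40 were called, 1 in each direction, beside 8% (4.93% higher and 3.07% lower). The LP libraries lay above both W libraries for 11 members, beside 11.5% of loci, and below for 3, beside 12.6%. The DP libraries lay above both LP libraries for 24, beside 25.3%, and below for 3, beside 14%.

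Other features of the Raphanus libraries moved with the forms. The pollen genes VGD1, VGDH1 and PPME1 summed to 4838 and 4442 FPKM in W, 856 and 869 FPKM in LP and 78.6 and 152 FPKM in DP, and all 3 fell in DP against W. The carpel and ovule genes (AG, SHP1, SHP2, STK and CRC) summed to 271 and 49.8 FPKM in W and were listed at 0 in both DP libraries, with 2 of 4 tested called lower. The petal identity sum was 2750.2 and 2921 FPKM in W and 6511 and 6788 FPKM in DP, and 4 of 6 rose. Plastid-genome loci took 69.2% of the FPKM of W library 1 and 4.08% of W library 2, against 1.69% and 0.872% in DP. The DP libraries were also deeper, with 59204 and 80381 recovered reads against 27782 and 29903 in W and 28337 and 23691 in LP. The part of these differences in the antenna result was not tested.

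**Figure D3:**
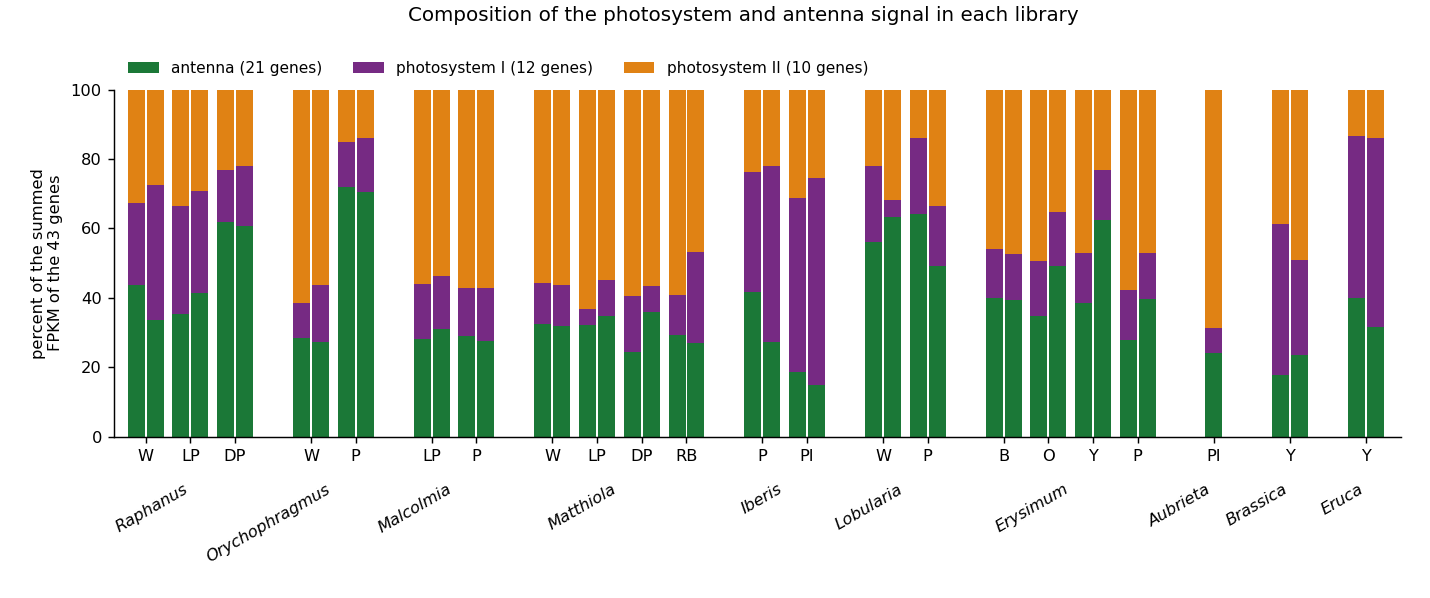
Share of the summed FPKM of the 43 genes taken by antenna, photosystem I and photosystem II genes, 1 bar per library adding to 100%. In Orychophragmus the antenna takes 72.0% and 70.5% in the P libraries and 28.5% and 27.4% in the W libraries, whereas in Malcolmia the shares of both forms are alike.

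In Orychophragmus, the antenna was higher in P and photosystem II was higher in W, so that the total hid a shift in composition. The antenna summed to 901 and 707 FPKM in W and to 2307 and 4026 FPKM in P, a 3.94-fold difference of means (log2 ratio 1.98, SD 0.62). The photosystem II genes summed to 1946 and 1455 FPKM in W and to 483 and 789 FPKM in P, 2.67-fold lower in P (log2 ratio -1.42, SD 0.58). Neither sum overlapped between the forms. The antenna took 28.5% and 27.4% of the member sum in W and 72.0% and 70.5% in P, and photosystem II took 61.5% and 56.3% in W and 15.1% and 13.8% in P. The photosystem I sums overlapped (317 and 422 FPKM in W, 413 and 895 FPKM in P). The sum of all 43 was 3164 and 2584 FPKM in W and 3203 and 5710 FPKM in P, that is, 1.55-fold higher in P (log2 ratio 0.63, SD 0.62).

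Of the 39 members tested, 4 rose and 1 fell in P, beside 4.94% of all tested loci called, with 1.66% higher and 3.28% lower. All 4 that rose are antenna genes of photosystem II. LHCB2.3 (AT3G27690) went from 9.0 and 14.7 FPKM in W to 340.0 and 460.2 FPKM in P (4.98, SE 0.39, adjusted p = 0.0243). LHCB1.2 (AT1G29910) went from 32.7 and 33.5 FPKM to 398 and 682 FPKM (3.94, SE 0.35, adjusted p = 0.0259). In reads, LHCB1.2 had 4 and 5 in W and 36 and 57 in P, so the difference rests on low counts in W.

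LHCB1.1 (AT1G29920) had 1 read in each W library, at 6.87 and 5.62 FPKM, and 83.5 and 181 FPKM in P (4.1, SE 0.54, adjusted p = 0.0405). LHCB6 (AT1G15820), a minor antenna protein between the trimers and the photosystem II core, went from 13.6 and 22.3 FPKM to 193 and 189.6 FPKM (3.38, SE 0.38, adjusted p = 0.0326). LHCB5, in a like position, gave 26.6 and 38.1 FPKM in W and 162 and 321 FPKM in P and missed the threshold (2.80, adjusted p = 0.0566). Summed by family, LHCB1 gave 262 and 111 FPKM in W and 879 and 1838 FPKM in P. The family sums did not overlap, whichever LHCB1 copy took the reads. LHCB7, a rare antenna protein, ran the other way without a call, at 109.8 and 103 FPKM in W and at 42.4 and 0 FPKM in P (adjusted p = 0.316).

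The member that fell was PSBR, from 943 and 712 FPKM in W to 105 and 75.4 FPKM in P (-3.19, SE 0.28, adjusted p = 0.0258). PSBO1 gave 642 and 504 FPKM in W and 208 and 376 FPKM in P without a call (-1.02, adjusted p = 0.184), and the 2 PSBO copies together gave 745 and 551 FPKM in W and 251 and 423 FPKM in P. PSBR and PSBO1 were thus the 2 largest parts of the photosystem II sum in W, and both were lower in each P library. PSAD1, at the ferredoxin-docking side of photosystem I, gave 106 and 95.4 FPKM in W and 228 and 263 FPKM in P (1.28, adjusted p = 0.063).

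Across the Orychophragmus members the P libraries lay above both W libraries for 20, beside 21% of all tested loci, and below for 6, beside 24.6%. The median difference was 1.04 (0.98 with the 5 members listed at 0 in a form at their floor), beside -0.15 over all tested loci. By subset the median was 1.58 for the antenna (1.42 with the floor), with 16 of 19 above 0, and -1.02 for photosystem II (-0.62 with the floor), with 3 of 9 above 0. The calls were not stable when 1 library was left out: 0 members were called without P library 1, and 3 without each of the others, of which 1 higher and 2 lower without either W library. LHCB1.1, LHCB2.3 and PSBR lost their call whichever of the 4 was left out, LHCB1.2 kept it without P library 2 only, and LHCB6 kept it without either W library. At an unadjusted p under 0.05 there were 14 of 39 members, beside 3362 of 13226 loci. Limma voom called 8 of the 22 members with recovered reads, all higher, beside 831 loci higher and 562 lower of 6666; PSBR has no such reads. Rescaling to nuclear loci moved the median of all loci from -0.15 to 0.35 and gave 8 higher and 1 lower. The counts under rescaling and with 1 library left out stand without the share of all tested loci called there. They show only how the number moved.

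**Figure D4:**
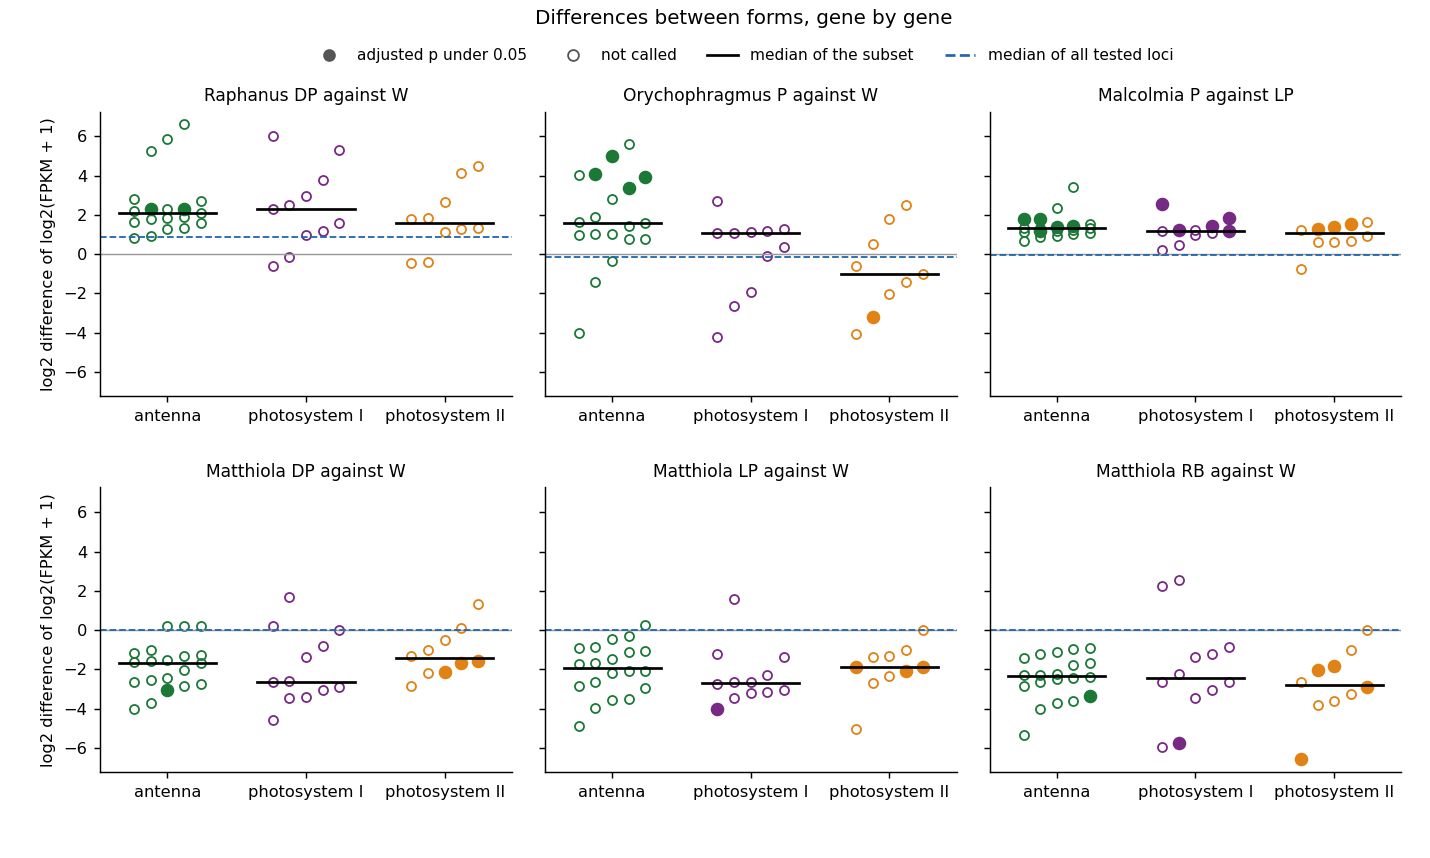
Log2 differences of log2(FPKM + 1) for each tested gene in 6 comparisons, by subset; filled points were called at an adjusted p under 0.05 in limma, the black bar is the subset median and the dashed line the median of all tested loci. In Orychophragmus the antenna median lies at 1.58 and the photosystem II median at -1.02, in Malcolmia all 3 subsets lie above the line, and in Matthiola nearly all points lie below it.

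Beside this result, other genes moved with the Orychophragmus forms. VGDH1, a pollen gene, fell from 164 and 186 FPKM in W to 4.81 and 10.4 FPKM in P. NYC1, which starts the breakdown of chlorophyll b, fell from 452 and 425 FPKM to 27.3 and 23.7 FPKM (-4.06, adjusted p = 0.0240). TOC1, an evening gene of the circadian clock, fell from 272 and 309 FPKM to 10.8 and 3.91 FPKM (-5.26, adjusted p = 0.0292), and CCA1, a morning gene, was listed at 0 in both W libraries and stood at 21.9 and 28.5 FPKM in P (adjusted p = 0.0460). The clock genes were chosen after their values were seen. The labels give no hour of collection, and the part of these differences in the antenna result was not tested.

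In Malcolmia, the deepest species, nearly all members were higher in P than in LP and in similar proportion. The 43 genes summed to 15533 and 15689 FPKM in LP and to 44609.7 and 37186.5 FPKM in P, 2.62-fold higher in P (log2 ratio 1.39, SD 0.19). The antenna gave 4366 and 4877 FPKM in LP and 12896 and 10277 FPKM in P, photosystem I gave 2472 and 2403 FPKM in LP and 6195 and 5669 FPKM in P, and photosystem II gave 8695 and 8410 FPKM in LP and 25518 and 21240 FPKM in P. None of these sums overlapped, and the antenna share was 28.1% and 31.1% in LP and 28.9% and 27.6% in P.

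Of the 40 members tested, 13 rose and 0 fell, beside 4.09% of all tested loci called in either direction and 2.77% called higher. They were 5 of 19 antenna genes (LHCB1.3, LHCB2.2, LHCB5, LHCB6 and LHCA1), 5 of 11 photosystem I genes (PSAF, PSAK, PSAL, PSAN and PSAO) and 3 of 10 photosystem II genes (PSBO1, PSBR and PSBW). Their adjusted p-values all lay close to the threshold, from 0.0460 to 0.0494.

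Among the antenna genes, LHCB1.3 went from 131 and 124 FPKM in LP to 548 and 369.5 FPKM in P (1.81, SE 0.26, adjusted p = 0.0468). LHCB2.2 went from 29.8 and 33.4 FPKM to 123 and 97.6 FPKM (1.77, SE 0.24). The most abundant antenna genes were not called: LHCB1.5 gave 1618 and 1593 FPKM in LP and 4648 and 3433 FPKM in P, and LHCB2.1 gave 1430.2 and 1565 FPKM in LP and 3832 and 3106 FPKM in P (adjusted p = 0.0528 for each). For both, each P library lay above each LP library.

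In photosystem I, PSAO (AT1G08380), a neighbour of PSAH and PSAL at the docking side for the mobile antenna, went from 412 and 387 FPKM to 1477 and 1347 FPKM (1.82, SE 0.20, adjusted p = 0.0460). PSAN, on the lumen side where plastocyanin binds, went from 728 and 653 FPKM to 1622 and 1606 FPKM (1.23, SE 0.20). PSAK (AT1G30380), next to the antenna belt, had the largest called difference but at low levels, from 4.22 and 1.58 FPKM to 19.4 and 21.8 FPKM (2.56, SE 0.46, adjusted p = 0.0494). PSAH2, the highest photosystem I member in 3 other species, gave 233 and 231 FPKM in LP and 321 and 316 FPKM in P, the second smallest difference above 0 in this subset (0.46, adjusted p = 0.169).

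In photosystem II, PSBR went from 6612 and 6147 FPKM in LP to 20299 and 16543 FPKM in P (1.52, SE 0.26, adjusted p = 0.0489), and PSBO1 from 1344 and 1321 FPKM to 3421 and 3079 FPKM (1.28, SE 0.21, adjusted p = 0.0487). PSBQ2 was the one member whose P libraries lay below both LP libraries, at 16.1 and 9.40 FPKM in LP and 8.41 and 5.72 FPKM in P (-0.74, adjusted p = 0.265). PSBS, which acts in photoprotective quenching of excess light, gave 83.7 and 76.3 FPKM in LP and 120.3 and 131 FPKM in P (0.65, adjusted p = 0.109).

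Over all members tested in Malcolmia, the P libraries lay above both LP libraries for 38, beside 30.8% of all tested loci, and below for 1, beside 32.7%. The median difference was 1.22, beside -0.03 over all tested loci, and 39 of 40 differences were above 0. The number of calls was not stable: it was 0 with a pseudocount of 0.1, without the filter on low values and under quantile scaling. It also changed when 1 library was left out, while the log2 ratio of member sums stayed between 1.25 and 1.51. These counts, and that under rescaling below, stand without the share of all tested loci called under the same setting. They show only how the number moved. Limma voom on the recovered reads called 14 of 21 higher, beside 505 loci higher and 1228 lower of 10198. Rescaling to nuclear loci moved the median of all loci from -0.03 to -0.59, left the log2 ratio of member sums at 0.73 and gave 4 calls. Of the clock genes, LHY fell from 349 and 246 FPKM in LP to 96.9 and 106 FPKM in P and CCA1 from 87.2 and 59.9 FPKM to 18.9 and 17.6 FPKM. The pollen genes summed to 84.6 and 11.9 FPKM in LP and 2.79 and 3.2 FPKM in P. The part of these differences in the result was not tested.

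In Matthiola, W stood above the 3 coloured forms. The 43 genes summed to 4384 and 3143 FPKM in the W libraries (called a and b, since their columns carry the same number), 737 and 1131 FPKM in LP, 628 and 831 FPKM in RB, and 1047 and 1074 FPKM in DP. The mean of W was 3.55-fold that of DP (log2 ratio of DP to W -1.83, SD 0.34), 4.03-fold that of LP (-2.01, SD 0.55) and 5.16-fold that of RB (-2.37, SD 0.44). The antenna gave 1424 and 999.9 FPKM in W and from 184 to 393 FPKM in the coloured libraries, photosystem I gave 515 and 378 FPKM against 34.7 to 219 FPKM, and photosystem II gave 2445 and 1765 FPKM against 371 to 624 FPKM. No coloured library overlapped W in any of these sums. The 3 comparisons with W share the W libraries.

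Of the 42 members tested, 4 fell in DP, 4 in LP and 6 in RB, and 0 rose in any, beside 2.66%, 1.33% and 7.1% of all tested loci called. The share of all tested loci called lower was 1.64%, 0.879% and 4.7%. PSBR, PSBO1 and PSBO2, which all serve the oxygen-evolving complex, were called in each of the 3 comparisons. PSBR stood at 1205 and 781 FPKM in W, 233 and 221 FPKM in LP, 151 and 108 FPKM in RB, and 240.2 and 202 FPKM in DP. Its differences from W were -2.13 in DP (SE 0.28, adjusted p = 0.0146), -2.09 in LP (SE 0.28, adjusted p = 0.0247) and -2.92 in RB (SE 0.28, adjusted p = 0.00475). Both W libraries lay well above the other 6.

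PSBO1 stood at 464 and 389 FPKM in W, 103 and 123 FPKM in LP, 106 and 98.3 FPKM in RB, and 113 and 179 FPKM in DP. PSBO2 (AT3G50820) was close to it in each form, at 411 and 361 FPKM in W, 91.1 and 114 FPKM in LP, 115 and 98.4 FPKM in RB, and 125 and 116 FPKM in DP. The differences of the 2 copies from W ranged from -1.57 (PSBO1 in DP, SE 0.29, adjusted p = 0.0406) to -2.04 (PSBO1 in RB, SE 0.29, adjusted p = 0.00946). For both copies the 6 coloured libraries lay below both W libraries. Some of these calls were lost when 1 library was left out: PSBO1 in LP without any 1 of the 4, PSBO1 in DP without either W library, PSBR in LP without either LP library, and PSBR in DP without DP library 2. The calls of PSBR, PSBO1 and PSBO2 in RB and of PSBO2 in DP and LP were kept without each library in turn. Under rescaling to nuclear loci, however, every call of these 3 genes against W was lost. Quantile scaling also lost those of PSBO1 and PSBO2 in DP and of PSBR and PSBO1 in LP.

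Among the antenna genes, LHCB2.1 (AT2G05100) fell in DP, from 82.5 and 62.5 FPKM in W to 7.26 and 8.59 FPKM (-3.03, SE 0.59, adjusted p = 0.0447). It stood at 24 and 10.6 FPKM in LP and 19.0 and 10.4 FPKM in RB, without a call. LHCA2 fell in RB, from 369 and 272 FPKM in W to 28.3 and 30.9 FPKM (-3.38, SE 0.63, adjusted p = 0.0222). It stood at 33.3 and 158 FPKM in LP and 108 and 111 FPKM in DP, also below W. The call of LHCB2.1 was lost without either DP library or either W library, and that of LHCA2 without either RB library or either W library. Both calls were also lost under rescaling to nuclear loci. LHCB4.3, a minor antenna copy, was the highest LHCB4 gene here, at 261 and 180.1 FPKM in W and 17.0 to 83.8 FPKM in the coloured libraries, without a call.

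In photosystem I, PSAK fell in RB, from 249 and 191 FPKM in W to 15.6 and 0 FPKM (-5.75, SE 1.19, adjusted p = 0.0308). Leaving out 1 library moved this difference between -7.78 and -3.72. The call was lost without either W library or RB library 2, with a pseudocount of 0.1 and under rescaling to nuclear loci. PSAH2 differed between the coloured forms: it was listed at 0 in both LP libraries and stood at 19.8 and 11.8 FPKM in W, 56.5 and 101 FPKM in RB, and 56.7 and 48.1 FPKM in DP. It was called lower in LP than in W (adjusted p = 0.0282), DP (adjusted p = 0.0190) and RB (adjusted p = 0.00956), the last lost without RB library 2. The calls against DP and RB were also lost with the replicate number as a block, and that against DP under rescaling to nuclear loci. What 1 read of PSAH2 is worth is unknown, so no fold is given. PSAH2 was highest in RB and DP, and was the 1 called member whose level in W was not the highest of the 4 forms.

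PSBX (AT2G06520) differed in another way. It stood at 128 and 70.3 FPKM in W, 20.1 and 66.8 FPKM in LP, and 15.3 and 25.8 FPKM in DP, and was listed at 0 in both RB libraries. Against a floor of 3 reads per library it was at least 3.17-fold lower in RB than in W (adjusted p = 0.00528). It was also called higher in LP than in RB (adjusted p = 0.0235) and in DP than in RB (adjusted p = 0.0451), the former lost without either RB library and the latter when any 1 library of either form was left out. Both were also lost under rescaling to nuclear loci and in limma voom. Among the coloured forms, 1 of 42 members was called in LP against DP (PSAH2), beside 0.229% of all tested loci (0.138% lower). In LP against RB 2 were called (PSBX higher and PSAH2 lower), beside 0.726% (0.512% higher and 0.214% lower). In DP against RB 1 was called (PSBX), beside 0.84% (0.695% higher). Without overlap, LP lay above DP for 3 members and below for 4 (beside 14.5% and 15.1% of loci), LP above RB for 7 and below for 2 (18.2% and 10.1%), and DP above RB for 10 and below for 1 (19.3% and 12.3%).

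Over all members the coloured libraries lay below both W libraries for 25 members in DP, 27 in LP and 24 in RB, beside 18.9%, 18.2% and 21.4% of all tested loci, and above for 1, 0 and 1, beside 21.4%, 19.3% and 14.6%. The median differences were -1.66, -2.10 and -2.41, beside 0 over all tested loci, but 10, 16 and 16 members were listed at 0 in a whole form, and with these at their floor the medians were -1.20, -1.21 and -1.75. The result depended on the scaling. The nuclear locus AT3G08520 held 36.3% and 54.2% of the nuclear FPKM in the W libraries, 30.5% in DP library 1 and at most 1.79% in the other coloured libraries. Rescaling to nuclear loci moved the median of all loci from 0 to 0.97 in DP, 1.05 in LP and 0.08 in RB, gave log2 ratios of the member sums of -0.50, -0.44 and -0.82, and left 1 member called higher in DP, 1 called lower in LP, and 1 called in each direction in RB. Median-ratio scaling gave 4, 4 and 7 lower. The counts under both scalings stand without the share of all tested loci called there, so they show only how the number moved. Pollen and carpel genes were at or near 0 in all 8 Matthiola libraries, with pollen sums of at most 33.2 FPKM and carpel sums of at most 9.51 FPKM.

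In Erysimum, the libraries of 2 forms differed more than the forms. The 43 genes summed to 8365 and 7420.5 FPKM in B, 4216 and 29277 FPKM in O, and 3231 and 18199.5 FPKM in Y. The 2 libraries were thus 6.94-fold apart in O and 5.63-fold apart in Y, and both B libraries lay between them. Of 42 members detected, 40 in O and 39 in Y were higher in library 2, with median differences of 2.76 and 2.32, beside 0.04 and -0.05 over all detected loci. LHCB1.5 gave 1732 and 1488 FPKM in B, 586 and 9089 FPKM in O and 503 and 6391 FPKM in Y. PSBR gave 1596 and 1401 FPKM in B, 728 and 4059 FPKM in O and 416 and 888 FPKM in Y. The gap was therefore of unequal size among the genes, and for PSBR in Y both libraries lay below B.

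**Figure D5:**
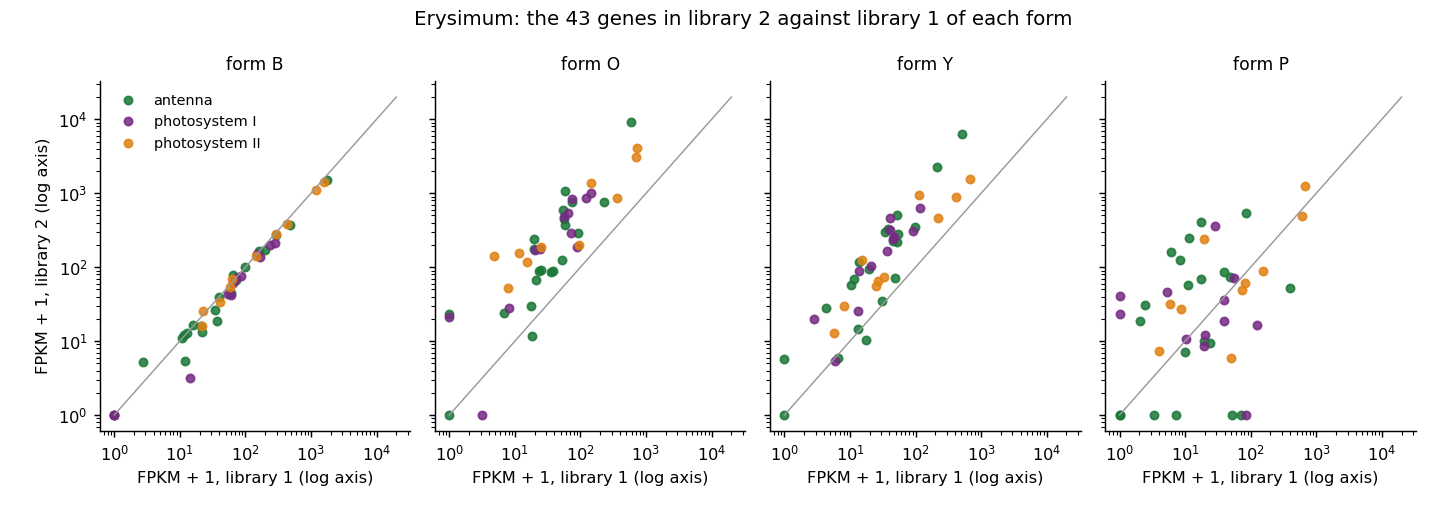
FPKM + 1 of the 43 genes in library 2 against library 1 for each Erysimum form, on log axes, coloured by subset, with the line of equal values. In B the points follow the line, in O and Y 40 and 39 genes lie above it, and in P the points scatter on both sides.

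No member was called in any Erysimum comparison (0 of 42 in limma for O against B, Y against B and O against Y, beside 0.0298%, 0.224% and 0.0224% of all tested loci). At an unadjusted p under 0.05 there were 4, 2 and 4 members, beside 1235, 1959 and 1085 of 13411 loci. Limma voom on the recovered reads called 0 of 26 members, a count given without the share of all loci it called. LHCB1.1 had the smallest adjusted p in both comparisons of O, at 11.9 and 11.7 FPKM in B, 37.3 and 88.5 FPKM in O and 12.3 and 13.8 FPKM in Y (O against B 2.19, adjusted p = 0.393; O against Y 2.06, adjusted p = 0.385). LHCB2.2 stood at 15 and 15.7 FPKM in B and 47.5 and 69.4 FPKM in Y (Y against B 1.84, adjusted p = 0.212). For LHCB1.1 both O libraries, and for LHCB2.2 both Y libraries, lay above those of B. LHCB1.2 stood at 36.3 and 17.8 FPKM in B, 52 and 126 FPKM in O and 29.3 and 33.8 FPKM in Y, PSBW at 60.8 and 68.8 FPKM in B, 92.9 and 196 FPKM in O and 23.5 and 54.0 FPKM in Y. PSAE2 and PSAK were listed at 0 in both B libraries, and in Y stood at 5.0 and 4.3 FPKM and at 1.82 and 19.1 FPKM. The O libraries lay above both B libraries for 8 members, beside 19.3% of all tested loci, and below for 0, beside 19.9%. The Y libraries lay above both B libraries for 6, beside 24.4%, and below for 5, beside 25.9%. The O libraries lay above both Y libraries for 5, beside 15.2%, and below for 1, beside 16.9%. The log2 ratio of the member sum of O to that of B was 1.09 with all libraries and -0.90 without O library 2.

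Other genes separated the same libraries, and were chosen after their values were seen. HSP101, a heat shock chaperone, stood at 5243 and 5320.4 FPKM in B, 4.19 and 3107 FPKM in O, and 0 and 1808 FPKM in Y. LHY, a morning gene of the clock, stood at 121 and 121 FPKM in B, 539 and 121 FPKM in O, and 815 and 301 FPKM in Y. RCA, the activase of Rubisco, stood at 3791 and 4002 FPKM in B, 532 and 5475 FPKM in O, and 220.1 and 982 FPKM in Y. Both B libraries had a higher HSP101 level than O library 2 and a lower member sum. The part of these differences in the antenna levels was not tested, and library number and the conditions of collection cannot be told apart.

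In Iberis, none of 34 members was called in PI against P, and limma called 0% of all tested loci. At an unadjusted p under 0.05 there were 4 members and 580 loci. Limma voom on the recovered reads called 0 of 16 members, a count given without the share of all loci it called. The P libraries were 3.29-fold apart, with sums of 6300.4 and 1917 FPKM, and enclosed the PI libraries at 4589 and 3814 FPKM. In P, 30 of 32 detected members were lower in library 2, with a median difference of -2.15, beside 0.24 over all detected loci. LHCA1, a subunit of the photosystem I antenna belt, gave 65.3 and 55.0 FPKM in P and 13.7 and 16.3 FPKM in PI (-1.93, adjusted p = 0.760). PSBP1 gave 239 and 85.1 FPKM in P and 604 and 416 FPKM in PI (1.80, adjusted p = 0.760). LHCA6 gave 11.8 and 8.78 FPKM in P and was listed at 0 in both PI libraries. A floor of 3 reads per library was worth 21.7 FPKM for it in PI, above both P values. The only other LHCA6 value above 0 was 0.693 FPKM in Malcolmia LP library 1. PSAD1, the highest member in this species, gave 1332 and 818 FPKM in P and 1759.9 and 1834 FPKM in PI. In these 4 genes the listed values of the forms did not overlap, in different directions, though for LHCA6 the floor leaves no difference. Over all tested members the PI libraries lay above both P libraries for 6, beside 13.3% of all tested loci, and below for 7, beside 11.8%.

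In Lobularia, none of 39 members was called in P against W, and limma called 0% of all tested loci. At an unadjusted p under 0.05 there were 2 members and 374 loci. Limma voom called 0 of 23 members, a count given without the share of all loci it called. The sums were 1068 and 958 FPKM in W and 1271 and 1026 FPKM in P, which overlap, and the log2 ratio of 0.18 turned to -0.18 when FPKM was rescaled to nuclear loci. Plastid loci took 47.6% of the FPKM of P library 2. PSAN gave 7.88 and 10.5 FPKM in W and was listed at 0 in both P libraries, and LHCB2.1 was listed at 0 in both W libraries and gave 13 and 6.28 FPKM in P (adjusted p = 0.710 for each). PSBS gave 26.4 and 20.6 FPKM in W and 0 and 13.1 FPKM in P, with the same adjusted p. The P libraries lay above both W libraries for 4 members, beside 8.93% of all tested loci, and below for 2, beside 10.7%. The Lobularia libraries held 20066 to 26312 recovered reads, and 16-fold changes simulated at this depth were called in 27% of cases by limma on log2(FPKM + 1) and in 98% by limma voom. The simulation used a fixed spread between libraries and not the observed one, so these shares do not give the power in the real libraries.

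Genes that work with the photosystems were set beside them by fixed lists. The shares of all tested loci called in each comparison are those given above. List medians have no floor for genes listed at 0. Of 14 electron transport genes, 0 were called in Raphanus DP against W (median difference 1.71) and 0 in Orychophragmus (11 tested, median -1.21). The median was 0.95 in Malcolmia, and -1.48, -1.85 and -2.08 in Matthiola DP, LP and RB against W. In Malcolmia 1 rose and 1 fell: FD2, the main leaf ferredoxin, went from 2201 and 2349.9 FPKM in LP to 6609 and 5628 FPKM in P (1.42), and STN7, the kinase that phosphorylates the mobile antenna, from 71.0 and 69.8 FPKM to 21.5 and 20.0 FPKM (-1.72). In Matthiola RB against W, 1 rose and 1 fell, the same pair in the opposite directions. FD2 fell from 818 and 744 FPKM in W to 81.9 and 29.5 FPKM in RB (-3.96), and STN7 rose from 184 and 272 FPKM to 601 and 604 FPKM (1.42). FD2 was also the 1 call in Matthiola DP against W, at 155 and 84 FPKM in DP (-2.76), and 0 were called in LP. STN7 also fell in Raphanus DP against LP (-1.90).

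Of the chlorophyll synthesis genes, 2 of 11 tested rose in Raphanus DP against W, beside 7.07% of all tested loci called higher. The median difference of the 11 was 2.06. CRD1, a subunit of the cyclase of chlorophyll synthesis, went from 187 and 79.6 FPKM in W to 1066 and 1088 FPKM in DP (3.13, adjusted p = 0.0276), with 199 and 155 FPKM in LP. CHLG, chlorophyll synthase, was listed at 0 in both W libraries and stood at 19.9 and 7.05 FPKM in DP. The value of a single CHLG read is not given here, but W libraries 1 and 2 had typical steps of 10.8 and 10.7 FPKM per read. At that depth the values of 0 in W cannot be told from the DP levels. The CHLG call is therefore uncertain, and no fold is given. In Orychophragmus 1 of 14 fell, beside 3.28% of all tested loci called lower. This was CHLG, from 194 and 217 FPKM in W to 52.3 and 63.7 FPKM in P (-1.81, limma adjusted p = 0.0473). The median difference of the 14 tested was 1.17, so CHLG ran against the median of its list. The list median was -0.32 in Malcolmia, and -1.07, -0.74 and -0.29 in Matthiola DP, LP and RB against W. In Malcolmia 0 of 15 were called in limma, where 4.09% of all tested loci were. In Matthiola 1 of 12 fell in DP against W (CRD1), and 0 in LP and RB. Of the chlorophyll breakdown genes, 1 of 7 fell in Orychophragmus (NYC1, above) and 1 of 6 in Matthiola RB against W, PAO, which opens the chlorophyll ring.

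The Rubisco list (4 small-subunit genes and RCA) had 2 of 5 rising in Raphanus DP against W and in Malcolmia P against LP. Beside this stood 7.07% and 2.77% of all tested loci called higher. In Orychophragmus 0 of 4 were called. In Raphanus LP against W 1 of 5 rose, and in DP against LP 1 of 5 fell, RBCS2B, from 991 and 1054 FPKM in LP to 251 and 245 FPKM in DP, with 392 and 244 FPKM in W. RCA stood at 348 and 523 FPKM in Raphanus W, 2616 and 1411 FPKM in LP, and 2502 and 2965 FPKM in DP. In Malcolmia it went from 1696 and 1645 FPKM in LP to 5451 and 4515 FPKM in P. In each Matthiola comparison with W, 1 of 4 fell, RCA, from 1470.3 and 1235 FPKM in W to between 402 and 567 FPKM in the coloured libraries. The share of all tested loci called lower was 1.64% in DP, 0.879% in LP and 4.7% in RB. The light-stress relatives of the antenna proteins (ELIP1, ELIP2, OHP1, LIL3.1 and LIL3.2) gave 1 call in Malcolmia and 1 in each Matthiola comparison with W. OHP1 rose in Malcolmia from 171 and 258 FPKM to 789.6 and 906 FPKM (2.0), and ELIP1 fell in each coloured form of Matthiola, from 1056 and 932 FPKM in W to between 164 and 328 FPKM. Rescaling to nuclear loci removed most member calls against W in Matthiola, and its effect on the RCA and ELIP1 calls is not given here. The regulators GLK1, GLK2 and HY5, which act on photosynthesis genes, gave 0 calls in limma in the comparisons where they could be tested: all 3 in Raphanus, 2 of 3 in Malcolmia, Matthiola and Orychophragmus, and 1 of 3 in Erysimum, Iberis and Lobularia. With 2 libraries a form, 0 calls do not show that their levels were equal. Their median difference was 2.78 in Raphanus DP against W, 0.89 in Orychophragmus and 0.23 in Malcolmia. It was -2.38, -2.21 and -4.18 in Matthiola DP, LP and RB against W.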

How the data were processed

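The authors deposited 1 table of FPKM per species. Per the submitters' processing notes, TopHat, Cufflinks, Cuffdiff and DESeq were used; their versions, the assembly and the strand setting of the counting are not given in the sources used here, although the labels describe directional libraries. FPKM was used as deposited. Matching, sums and plots used Python 3.11.15 (pandas 2.3.3, numpy 2.4.6, matplotlib 3.10.9). Tests used limma 3.58.1 in R 4.3.3 (lmFit, then eBayes with a mean-variance trend) on log2(FPKM + 1), with all forms of a species in 1 fit and p-values adjusted over all tested loci. In Erysimum the fit held B, O and Y; columns headed PI were taken as form P and left out of it. Any of the 43 members could be named; every called member was (up to 12 with the largest change in a comparison, and in Malcolmia 1 more), or the 3 with the smallest adjusted p where none was called, and up to 2 called genes of each other list. A floor of 3 reads per library covers counting error only.

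Recovered reads were whole numbers within 0.1 for 90.6% to 99.2% of low values in 7 species, at 13782 loci including 23 members in all 7; Aubrieta, Brassica and Eruca gave 28.7% to 39.8%. On simulated data limma called 20% to 100% of 16-fold changes, depending on species, and limma voom 96% to 100%. The simulated spread between libraries was fixed and not taken from the real libraries, and loci with very few reads were left unchanged. The members and lists were chosen with earlier results of these data known, and the clock genes and HSP101 after their values were seen. Limma voom on recovered reads and median-ratio scaling were added after the data were seen; the other alternatives were a pseudocount of 0.1, no filter, quantile scaling, rescaling to nuclear loci, a replicate block, form P in the fit, LHCB1 left out of the sums, and each library left out. The direction of a named list was counted from called genes, and the median difference of some lists is given beside the counts. No reference sequences were used here.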

Additional observations from a re-analysis of the deposited data

How the results depend on the processing

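The log2 ratios of the member sums kept within 1 SD of their value under most settings (106 of 112 comparisons of a ratio with an alternative). That SD comes from the same libraries and is wide where they differ, so a ratio could change sign within it. The count is therefore no measure of stability. Rescaling to nuclear loci moved 5 of them: to 0.73 in Malcolmia, -0.18 in Lobularia, and -0.50, -0.44 and -0.82 in Matthiola DP, LP and RB against W. Leaving out 1 library gave -0.90 to 1.89 in Erysimum O against B, -1.29 to 1.21 in Y against B and -1.35 to 2.37 in O against Y. In Iberis PI against P it gave -0.58 to 1.13. The differences of single named members kept their sign in every alternative run; 198 values lost the call, 3 gained one and 383 stayed on their side of the threshold.

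The counts of called members were less stable. They are given here without the share of all tested loci called under the same setting, so they show only how the number moved. With a pseudocount of 0.1 they were 8 in Orychophragmus, 0 in Malcolmia and 2 in Matthiola DP against W. Without a filter they were 0 in Raphanus LP against W, 0 in Malcolmia and 0 in Matthiola DP against RB. Quantile scaling gave 1, 0 and 1 in Raphanus DP against W, LP against W and DP against LP, 8 in Orychophragmus, 0 in Malcolmia, and 1, 2 and 0 in Matthiola DP against W, LP against W and DP against RB. Rescaling to nuclear loci gave 0 in Raphanus LP against W, 1 in Raphanus DP against LP, 9 in Orychophragmus, 4 in Malcolmia, 1, 1 and 2 in Matthiola DP, LP and RB against W, and 0, 1 and 0 in LP against DP, LP against RB and DP against RB. Median-ratio scaling, added later, gave 0 in Raphanus LP against W and 1 in Raphanus DP against LP. Limma voom, added later and run only on members with recovered reads, gave 11, 2 and 6 in Raphanus DP against W, LP against W and DP against LP, 8 in Orychophragmus, 9 in Matthiola LP against W, and 0 in each of the 3 comparisons among coloured forms. Leaving out 1 library gave 2 to 13, 2 to 8 and 1 to 4 in the same Raphanus order, 0 to 3 in Orychophragmus, 0 to 6 in Malcolmia, 0 to 2 in Iberis, 0 to 5 in Lobularia, 2 to 7, 2 to 8 and 6 to 10 in Matthiola DP, LP and RB against W, and 1 to 3, 0 to 4 and 0 to 1 in LP against DP, LP against RB and DP against RB. The cause of these moves was not tested.

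With the replicate number as a block, the counts were 0 in each Raphanus comparison, 19 in Orychophragmus, 3 in Iberis, and 0 in each comparison among the coloured Matthiola forms. These counts too stand without the share of all tested loci called with the block, so they are no result about the members. Apart from 1 comparison, the libraries shared little but a number: the correlation of the difference between libraries 1 and 2 across forms lay between -0.05 and 0.08. In Erysimum O against Y it was 0.38, so there libraries of the same number partly differed alike. The Matthiola W columns carry no number of their own, so no block was possible there.

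On simulated data limma on log2(FPKM + 1) called 4-fold changes in 0% of cases in Raphanus, Orychophragmus and Lobularia and in 64% in Malcolmia. It called 16-fold changes in 24%, 20%, 27% and 100% there, and limma voom in 96%, 100%, 98% and 100%. With the fixed spread of the simulation, these shares do not give the power in the real libraries.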

Other observations

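Of the 3 species with 1 form each, PSAH2 was the highest member on average in Eruca and Brassica and PSBR in Aubrieta. In Eruca the 43 genes summed to 19984 and 11149 FPKM, with PSAH2 at 6417 and 4727 FPKM, LHCB5 at 4663 and 1622 FPKM and PSAN at 2447 and 878 FPKM. In Brassica they summed to 2067 and 1773 FPKM, with PSAH2 at 847 and 416 FPKM, PSBR at 381 and 453 FPKM and PSBS at 157 and 144 FPKM, and 14 members were listed at 0 in both libraries. In Aubrieta they summed to 9589.9 FPKM, with PSBR at 6051 FPKM, LHCB1.4 at 646 FPKM and LHCB5 at 461 FPKM.

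Erysimum form P entered no comparison, because its columns are headed with another code. Its member sums were 2892 and 4790.5 FPKM, below both B libraries. LHCB1.5 stood at 389.8 and 51.7 FPKM and HSP101 at 33.2 and 919.8 FPKM. RCA stood at 584 and 18643 FPKM in P, and the antenna sum at 808 and 1896 FPKM. A relation between these levels was not tested.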
